A study of Homo sapiens with 18 samples.

Results

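The clustered histone genes, the HIST1 to HIST4 genes that supply most of the histone protein a cell packs its newly copied DNA with, were followed in HT29 colorectal cancer cells and in HTOXAR3, a subline of HT29 made resistant to oxaliplatin (OXA). Members were all gene names on the array that began with HIST1H, HIST2H, HIST3H or HIST4H, which gave 69 of 36204 gene names and 83 of 50599 probes. By family they comprised 6 linker histone H1 genes, 17 H2A, 19 H2B, 13 H3 and 14 H4 genes. By cluster, 56 belonged to HIST1 on chromosome 6, 9 to HIST2 and 3 to HIST3 on chromosome 1, and 1 to HIST4 on chromosome 12.

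RNA from 18 samples was measured on 18 one-colour arrays, 3 per group. HT29 was left untreated, given 10 µM OXA for 24 h, or given 10 µM OXA with 10 µM Curcumin for 24 h. HTOXAR3 was left untreated, given 30 µM OXA for 24 h, or given 30 µM OXA with 10 µM Curcumin for 24 h. There was no group given Curcumin alone, so its effect was measured only on top of OXA, and the OXA dose differed between the lines. The lines were compared as HT29 against its single resistant subline. The labels call the 3 samples of a group biological replicates, and p-values measure the spread between them.

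Nucleosomes wrap DNA around a core of H2A, H2B, H3 and H4, and H1 binds the linker DNA between cores. Most clustered genes are transcribed during DNA synthesis, when NPAT activates them, and their messages end in a conserved stem-loop bound by SLBP in place of a poly(A) tail. Some clustered genes can also give longer, polyadenylated messages when the usual 3′ end is not used. Oxaliplatin is a platinum compound that crosslinks DNA, and Curcumin is a plant polyphenol.

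What the array reads of these messages is shown by its probes, each 60 bases long. A search of the probes for the histone stem-loop motif, 16 letters of which 3 may be any base, found the whole motif in 6 of 83 probes and only its first 9 letters in 3 more. The stem-loop parts of those 6 probes are shown because they place the probe at the 3′ end of the processed message, with the motif in capitals.
HIST1H2AI: aaccaaaGGCTCTTTTCAGAGCCaccta
HIST1H2BE: acccaaaGGCTCTTTTCAGAGCCactca
HIST1H2BF: tcccaaaGGCTCTTTTAAGAGCCa
HIST1H3H: acccaaaGGCTCTTTTCAGAGCCaccca
HIST1H4K: aacaaaaGGCCCTTTTTAGGGCCcc
HIST2H3A: tccaaaaGGCTCTTTTCAGAGCCacc

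Other probes lie in the coding sequence, where family members resemble each other. The probe of HIST1H3A, which was not called in any comparison with untreated cells, is shown beside those of HIST1H3D and HIST1H3I, all H3 genes of the HIST1 cluster.
HIST1H3A: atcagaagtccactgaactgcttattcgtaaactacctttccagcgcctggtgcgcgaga
HIST1H3D: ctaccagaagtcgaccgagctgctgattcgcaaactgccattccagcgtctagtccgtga
HIST1H3I: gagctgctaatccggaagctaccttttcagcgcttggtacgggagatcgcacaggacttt
The HIST1H3A probe matched that of HIST1H3D at 46 of 58 overlapping bases, 79.3%, and that of HIST1H3I at 37 of 46, 80.4%. Of the 69 probes used, 1 per gene, 11 were at least 90% identical over at least 40 bases to a probe of another member, so those members may share signal.

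Promoters were taken from RefSeq on GRCh38.p14 for 62 of the 69 members, over a window from 250 bases before to 50 after the start, and searched on both strands. The octamer ATTTGCAT, a binding motif of the factor OCT1, was in 26 of 62 members, 41.9%, against 1.8% of 27305 promoters of all genes. It was in 11 of 15 H2A and 14 of 18 H2B promoters and in 1 of 11 H3 promoters, and none of 6 H1 or 12 H4 promoters held it. CCAAT was in 53 of 62, 85.5%, against 35.7% of all promoters, and in 3 of 12 for H4. TATAAA was in 41 of 62, 66.1%, against 12%, and AAACACA was in 8 of 62, 12.9%, against 5.76%, with all 6 H1 promoters among those 8. No matches of different motifs overlapped. In 11 head-to-head H2A and H2B pairs the windows overlap on opposite strands, so their matches are shared. The 250 bases before the start of 4 genes that the results turn on are given with all 4 motifs in capitals, HIST1H1D at chr6:26234988-26235237 on the minus strand, HIST1H2AL at chr6:27865067-27865316 on the plus strand, HIST4H4 at chr12:14771132-14771381 on the minus strand and HIST2H2AA4 at chr1:149850811-149851060 on the plus strand.
HIST1H1D: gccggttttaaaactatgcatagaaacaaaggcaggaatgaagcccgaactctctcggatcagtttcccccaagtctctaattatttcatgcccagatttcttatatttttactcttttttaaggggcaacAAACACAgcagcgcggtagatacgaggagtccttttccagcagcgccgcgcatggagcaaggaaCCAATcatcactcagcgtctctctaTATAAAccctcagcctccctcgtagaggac
HIST1H2AL: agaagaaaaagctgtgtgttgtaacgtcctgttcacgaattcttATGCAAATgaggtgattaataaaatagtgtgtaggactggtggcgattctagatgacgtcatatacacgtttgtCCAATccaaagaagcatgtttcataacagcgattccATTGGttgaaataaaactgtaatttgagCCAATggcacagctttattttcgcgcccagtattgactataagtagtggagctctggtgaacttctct
HIST4H4: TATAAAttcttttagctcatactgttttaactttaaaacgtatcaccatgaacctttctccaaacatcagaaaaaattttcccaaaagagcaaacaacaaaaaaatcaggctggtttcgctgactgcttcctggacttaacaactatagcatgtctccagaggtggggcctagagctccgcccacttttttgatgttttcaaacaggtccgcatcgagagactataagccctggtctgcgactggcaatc
HIST2H2AA4: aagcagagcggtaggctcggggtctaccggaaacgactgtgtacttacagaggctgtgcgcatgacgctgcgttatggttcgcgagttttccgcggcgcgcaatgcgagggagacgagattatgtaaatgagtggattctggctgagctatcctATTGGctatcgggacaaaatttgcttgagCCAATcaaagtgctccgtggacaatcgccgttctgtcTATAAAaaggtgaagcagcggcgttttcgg
The octamer of HIST1H2AL lies on the opposite strand, and HIST4H4 has no CCAAT match in this stretch. A match is a description of letters and not a bound site.

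Values are log2 signals after background correction and quantile normalization, and 63 of the 69 members were well above background on all 18 arrays. The other 6, HIST1H1A, HIST1H1T, HIST1H2APS1, HIST1H2BA, HIST1H4G and HIST2H2BA, were well above background on 0 to 7 arrays and none of them was called in any comparison. The epithelial keratins KRT8, KRT18, KRT19 and KRT20 and EPCAM were well above background on every array, as were CDH1, CDX1, LGALS4 and VIL1. Other epithelial markers were dimmer, with CEACAM5, CDX2 and CDH17 well above background on 16, 10 and 5 arrays. Between the untreated lines LGALS4, VIL1 and CDH17 were lower in HTOXAR3, by log2 differences of -2.08, -1.61 and -1.55, and with OXA in HT29 CEACAM5 differed by -2.15 and VIL1 by 1.06. Of 11 markers of leukocytes, fibroblasts and endothelium, 6 to 8 were above background on an array, with a median level of 4.94 to 5.58 against 12.88 to 13.97 for the epithelial list. Among them CD68 differed by 1.19 and 1.40 on adding Curcumin in HT29 and HTOXAR3, while DCN, COL1A2 and COL3A1 were well above background on 1, 0 and 0 arrays. The part of these markers in the histone results was not tested. The labelling primers start from the poly(A) tail in the usual form of this kit, and how messages without that tail entered the signal was not tested.

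Before treatment the clustered histone genes had similar levels in both lines. The median difference, HTOXAR3 minus HT29, was -0.02 on the log2 scale over the 69 members and -0.03 over all gene names. None of the 69 was called, where a call needed a Benjamini-Yekutieli adjusted p below 0.05 in limma and a fold above 1.2, and 6.26% of all names were called higher and 5.28% lower. At an unadjusted p below 0.05, 2 members were higher and 4 lower, counts given without the share of all names at that p.

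OXA lowered a large share of the clustered histone genes in both lines, with more calls in HT29. In HT29, 52 of 69 members were called lower and none higher, which is 75.4% of the members against 7.62% of all names called lower and 8.33% called higher. In HTOXAR3, 33 of 69 were called lower and none higher, 47.8% against 4.94% of all names called lower and 5.31% called higher. The median log2 difference of the members was -0.78 in HT29 and -0.52 in HTOXAR3, while the median of all names was -0.01 and 0.01. The 33 members lower in HTOXAR3 were all among the 52 of HT29. In bulk RNA, fewer cells in DNA synthesis and less histone RNA per cell cannot be told apart. The study cites earlier reports that HT29 cells accumulate in the DNA synthesis phase after 24 h of OXA. Cell cycle phase was not measured on these arrays. The HTOXAR3 count fell to between 14 and 21 when any 1 of the 6 arrays compared was left out, and fitting only the groups compared gave 4 calls in each line.

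The fall was seen array by array. The groups did not overlap, with all OXA arrays below all untreated arrays, for 56 members in HT29, against 17.1% of all names, and for 55 members in HTOXAR3, against 16.5% of all names. No member was higher without overlap in either line. Within each of the 3 slides, the median difference in HT29 was -0.67, -0.84 and -0.82, and within the 2 slides that held both HTOXAR3 groups it was -0.47 and -0.51.

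**Figure D1:**
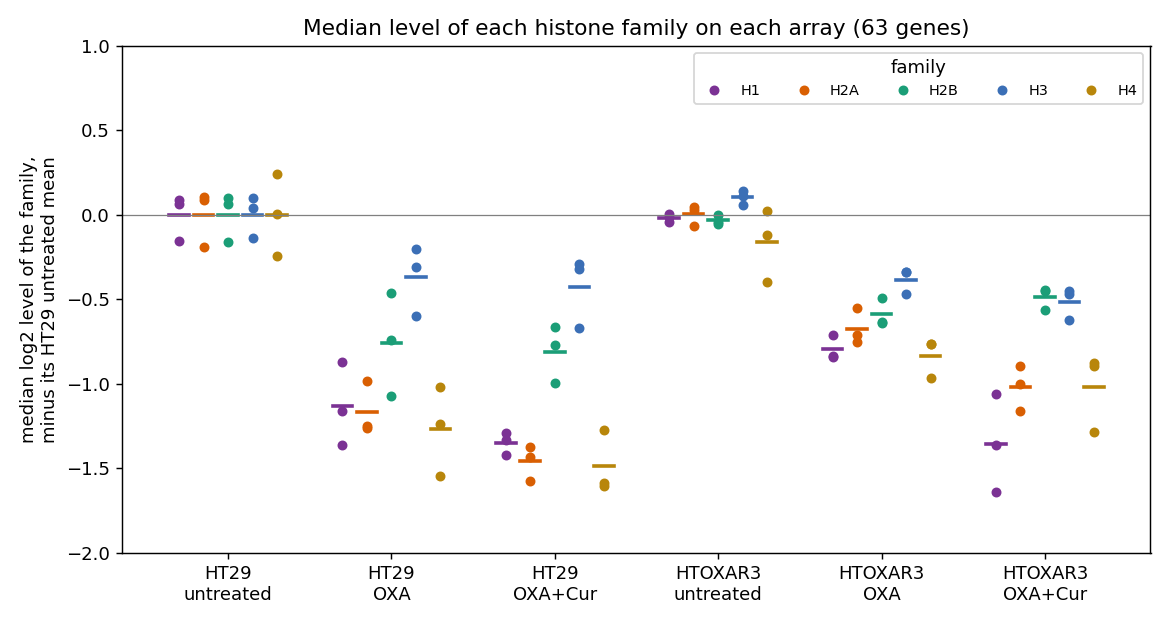
Median log2 level of each histone family on each of the 18 arrays (y axis, minus that family's mean in untreated HT29) by group (x axis), with a point per array and a bar for the mean of 3 arrays, over the 63 genes well above background on all arrays. In every family and both lines the 3 OXA arrays lie below the 3 untreated arrays of the same line.

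The H1 gene HIST1H1D, probed at chr6:26234699-26234758 on GRCh37, encodes the linker histone H1.3. Among the probes used, 1 per gene, it had the largest fall in HT29. Its log2 level was 13.75, 13.94 and 13.53 on the untreated HT29 arrays and 12.24, 12.06 and 11.98 with OXA. In HTOXAR3 it was 14.03, 13.87 and 13.89 untreated and 12.72, 12.55 and 12.53 with OXA. The treated and untreated arrays stood far apart in each line, with a log2 difference of -1.65 (SE 0.10, adjusted p = 3.41e-07) in HT29 and -1.33 (SE 0.10, adjusted p = 8.36e-06) in HTOXAR3.

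HIST1H2AL, an H2A gene of the same cluster probed at chr6:27833502-27833561, read 11.68, 11.48 and 11.06 in untreated HT29 and 10.13, 9.69 and 9.51 with OXA. In HTOXAR3 its level was 11.63, 11.49 and 11.19 untreated and 10.64, 10.33 and 10.22 with OXA. The difference was -1.63 (SE 0.20, adjusted p = 0.000247) in HT29 and -1.04 (SE 0.20, adjusted p = 0.0187) in HTOXAR3. No treated array reached the lowest untreated array of its line.

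HIST4H4, the lone H4 gene on chromosome 12, probed at chr12:14924006-14924065, had levels of 10.19, 10.05 and 9.71 in untreated HT29 and 8.73, 8.18 and 8.22 with OXA. In HTOXAR3 the levels were 9.8, 9.74 and 9.72 untreated and 8.59, 8.55 and 8.44 with OXA. It fell by 1.61 (SE 0.18, adjusted p = 0.000122) in HT29 and by 1.22 (SE 0.18, adjusted p = 0.00268) in HTOXAR3 on the log2 scale. Treated and untreated arrays did not overlap in either line.

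HIST3H2A, an H2A gene on chromosome 1 probed at chr1:228645483-228645542, had the largest fall in HTOXAR3. Its level was 7.01, 6.52 and 6.66 in untreated HTOXAR3 and 5.58, 5.55 and 5.02 with OXA, a difference of -1.35 (SE 0.27, adjusted p = 0.0305). In HT29 it went from 6.5, 6.54 and 6.66 to 5.18, 4.79 and 5.01, a difference of -1.57 (SE 0.27, adjusted p = 0.00605). The groups were separate in both lines.

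**Figure D2:**
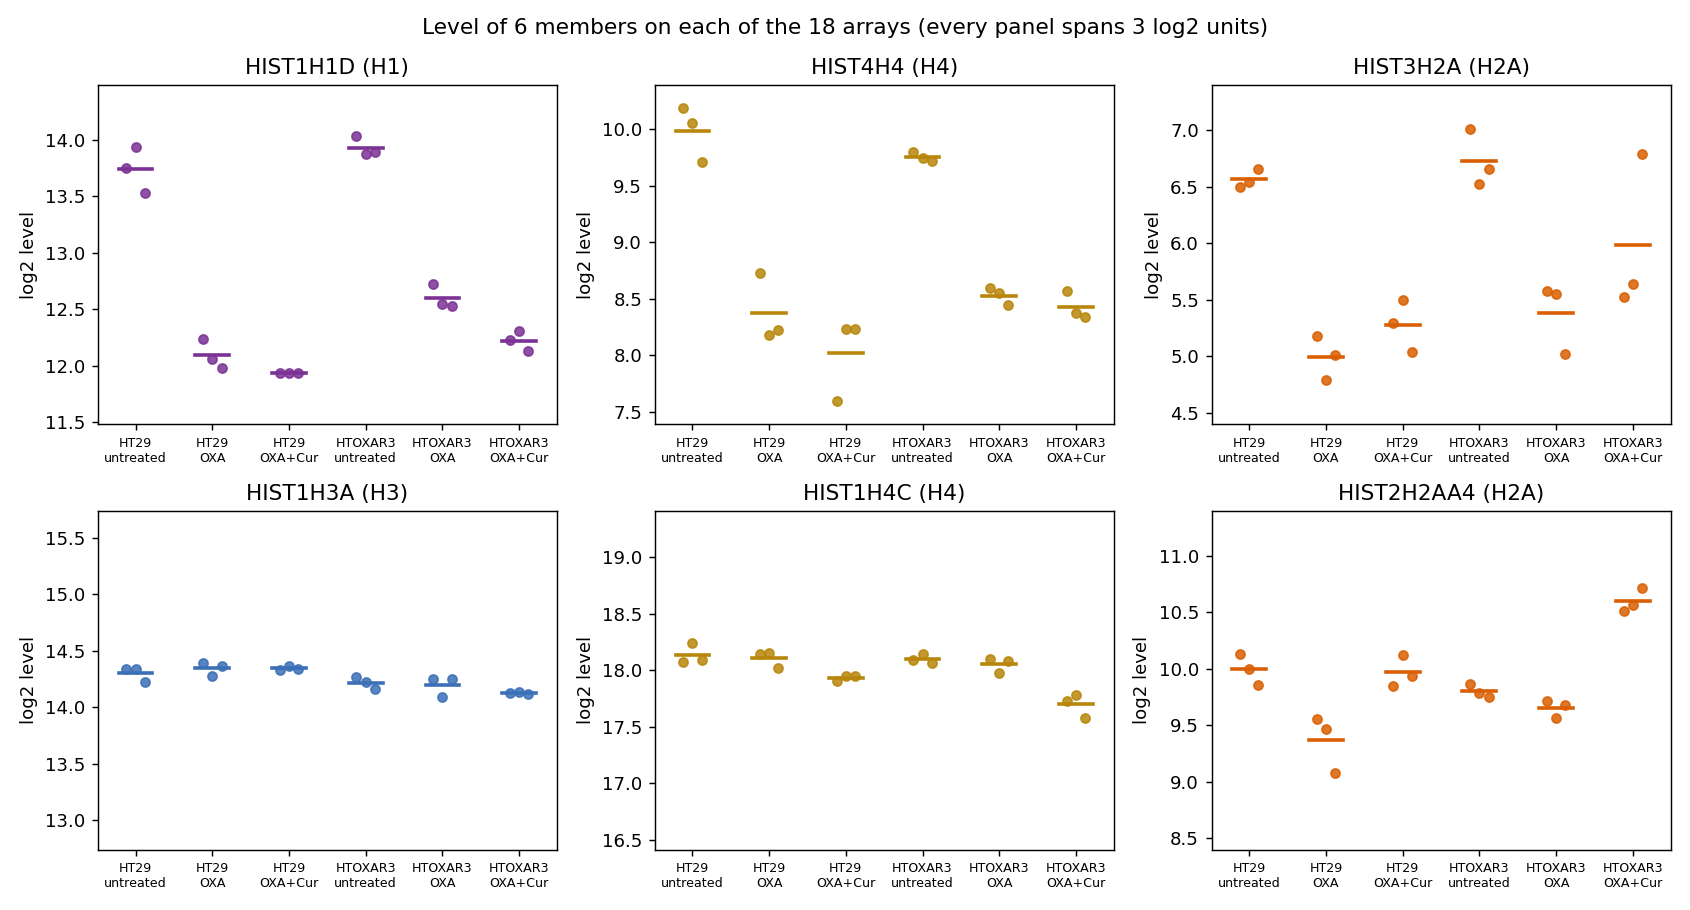
Log2 level (y axis) of 6 members on each array by group (x axis), with a point per array, a bar for the group mean and the same span in every panel. HIST1H1D, HIST4H4 and HIST3H2A drop with OXA in both lines, HIST1H3A and HIST1H4C overlap between untreated and OXA arrays in HT29, and HIST2H2AA4 is higher with OXA plus Curcumin than with OXA alone.

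By family, the H1 genes had the lowest medians. All 4 H1 genes well above background were called lower in HT29 and 3 of 4 in HTOXAR3, with medians of -1.18 and -0.76. The 16 such H2A genes had medians of -0.89 and -0.57, with 16 called lower in HT29 and 12 in HTOXAR3. The 17 H2B genes had medians of -0.76 and -0.51, with 17 and 8 called lower, and the 13 H4 genes had medians of -0.90 and -0.60, with 9 and 4 called lower. The 13 H3 genes had the medians nearest 0, at -0.55 and -0.44, with 6 called lower in each line. Differences between families were not tested. Brighter members tended to have OXA differences nearer 0. Over 63 members the Spearman correlation of untreated HTOXAR3 level with the HT29 difference was 0.45. For untreated HT29 level with the HTOXAR3 difference it was 0.44. The part of signal level in the family medians was not tested.

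By cluster, 43 of 56 HIST1 genes were called lower in HT29 and 29 in HTOXAR3, with medians of -0.79 and -0.53. For the 9 HIST2 genes the counts were 6 and 2, with medians of -0.51 and -0.36. Of the 3 HIST3 genes 2 were called lower in HT29 and 1 in HTOXAR3, and the HIST4 gene was called lower in each. Among the probes that hold the whole stem-loop, the differences in HT29 and HTOXAR3 were -1.17 and -0.68 for HIST1H2AI, -0.89 and -0.63 for HIST1H2BE and -1.24 and -0.96 for HIST1H2BF. The same pair of values was -1.43 and -0.68 for the HIST1H3H probe, -1.20 and -0.56 for the HIST1H4K probe, and -0.21 and 0.12 for HIST2H3A.

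Of the 26 H3 and H4 genes well above background, 11 were not called with OXA in HT29 and 16 in HTOXAR3. HIST1H3A, an H3 gene, had levels of 14.34, 14.34 and 14.22 in untreated HT29 and 14.39, 14.28 and 14.37 with OXA, so the groups overlapped. The log2 difference was 0.04 (SE 0.06, adjusted p = 1) in HT29 and -0.02 (SE 0.06, adjusted p = 1) in HTOXAR3. HIST1H4C, an H4 gene, read 18.07, 18.24 and 18.09 untreated and 18.14, 18.15 and 18.02 with OXA in HT29, a difference of -0.03 (SE 0.07, adjusted p = 1), and its difference in HTOXAR3 was -0.05 (SE 0.07, adjusted p = 1). HIST1H4L differed by 0.02 and -0.08, HIST1H4B by -0.05 and -0.19, HIST3H3 by -0.09 and -0.07, and HIST2H3A by -0.21 and 0.12, none of them called in either line. The others not called in HT29 were HIST1H3B at -0.55, HIST1H4E at -0.40, HIST1H3E at -0.33, HIST2H3D at -0.23 and HIST1H3C at -0.20, and none of them was called in HTOXAR3. The further 5 not called in HTOXAR3, HIST1H4D, HIST1H4F, HIST1H4I, HIST1H4J and HIST1H4K, were called in HT29 and differed by -0.45 to -0.67 in HTOXAR3. The probes of HIST1H4L disagreed, since the other probe, at base 176 of the transcript, differed by -0.56 and -0.46. The second probes of HIST1H4D and HIST1H4A also disagreed with the ones used, at -0.24 and -0.33 against -0.90 and -0.61 for HIST1H4D, and at -0.55 and -0.11 against -0.70 and -0.60 for HIST1H4A.

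The fitted fall was smaller in HTOXAR3 for most members, but none of them passed the test of the difference between lines. Of the 63 members well above background, called or not, 59 had a lower fitted log2 difference in HT29, at its lower dose of OXA. The difference between responses, HTOXAR3 minus HT29, had a median of 0.26 over the 69 members and 0.01 over all names. None was called, against 0.608% of all names called higher and 0.398% lower. At an unadjusted p below 0.05 there were 14 members higher and 0 lower. The share of all names at that p is not given here, so an excess cannot be read from this count. Benjamini-Hochberg adjustment also called 0. The size of the response was ordered alike in both lines, with a Spearman correlation of 0.94 and a Pearson correlation of 0.93 over the 63 genes, which share arrays and normalization and are not independent.

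**Figure D3:**
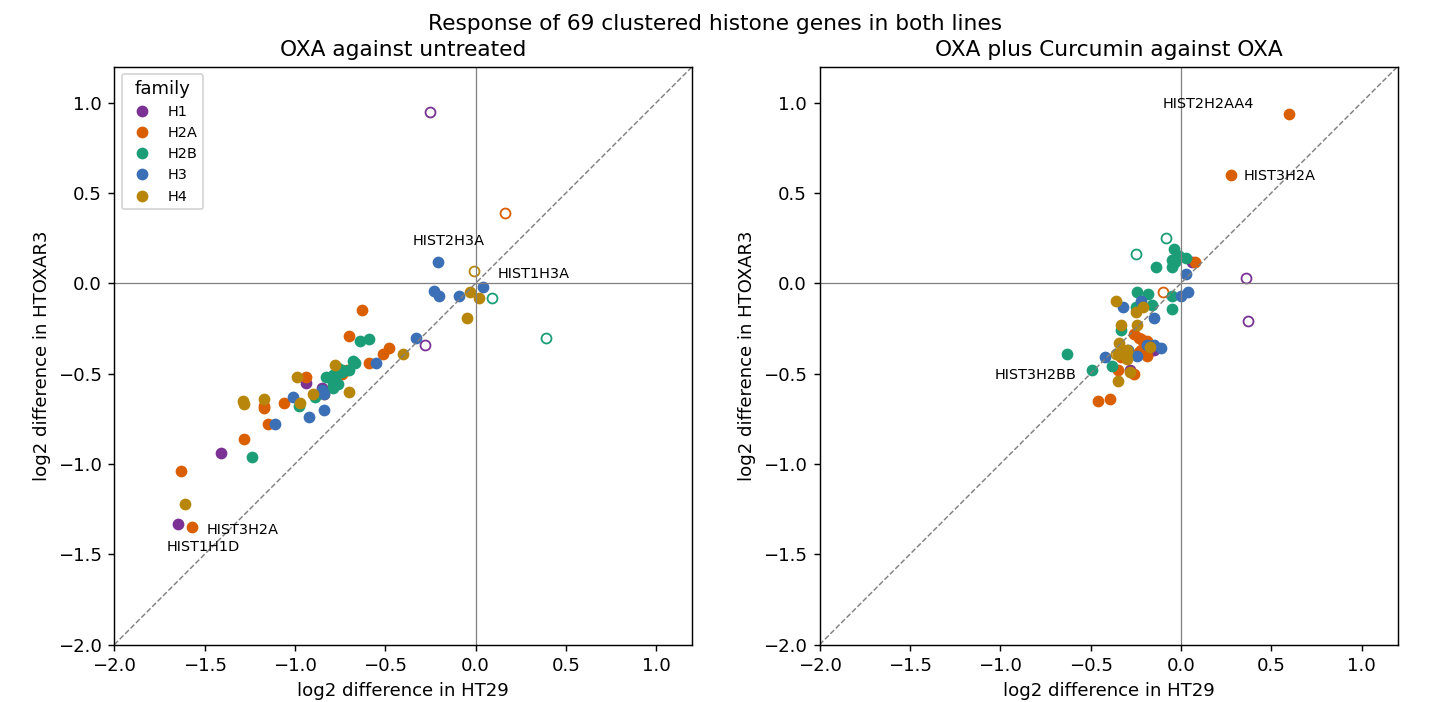
Log2 difference of each of the 69 members in HT29 (x axis) and HTOXAR3 (y axis), for OXA against untreated on the left and for OXA plus Curcumin against OXA on the right, coloured by family, with open points for genes not well above background on all arrays and the dashed line marking equal differences. On the left most points lie in the lower left and above the dashed line, and on the right HIST2H2AA4 stands at 0.60 in HT29 and 0.94 in HTOXAR3.

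Few clustered histone genes were called when Curcumin was added to OXA, and their median was below that of all names. The median log2 difference of the 69 members, OXA plus Curcumin minus OXA, was -0.22 in HT29 and -0.28 in HTOXAR3, while the median of all names was -0.02 in each line. In HT29 1 member was called higher and none lower, against 3.14% of all names called higher and 2.39% lower. In HTOXAR3 1 was called higher and 3 lower, against 4.43% and 4.41% of all names. At an unadjusted p below 0.05, 29 members were lower in HT29 and 34 in HTOXAR3. The share of all names at that p is not given here, so an excess cannot be read from these counts. The HTOXAR3 total of 4 calls was 1 without OXA replicate 1, without OXA replicate 3 or without OXA plus Curcumin replicate 3, and 0 when only the groups compared were fitted. Other settings raised it, to 8 with the mean of all probes, of which 4 were higher and 4 lower, 10 with a background offset of 50, 11 with a filter on dim probes, 12 with the slide as a block and 25 with Benjamini-Hochberg adjustment. Within slides the HT29 medians were -0.20 and -0.03, the latter from 1 array of each group, and the HTOXAR3 medians within slides were -0.30 and -0.25.

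HIST2H2AA4 was the member called higher, in both lines. It encodes a replication-dependent H2A, was probed at chr1:149822628-149822687, and has a near-identical neighbouring copy, HIST2H2AA3, that this probe cannot tell from it. Its level in HT29 was 10.13, 10 and 9.86 untreated, 9.56, 9.47 and 9.08 with OXA and 9.85, 10.12 and 9.94 with OXA plus Curcumin. In HTOXAR3 it was 9.87, 9.79 and 9.75 untreated, 9.72, 9.57 and 9.68 with OXA and 10.51, 10.57 and 10.72 with OXA plus Curcumin. So the combination arrays stood near the untreated arrays in HT29 and above all of them in HTOXAR3.

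Curcumin raised HIST2H2AA4 by 0.60 (SE 0.12, adjusted p = 0.0376) in HT29 and by 0.94 (SE 0.12, adjusted p = 0.000818) in HTOXAR3 on the log2 scale. In HT29, where the replicate numbers paired the arrays, the call was lost with the replicate number as a block (adjusted p = 0.06), and it was also lost without any 1 of 5 of the 6 arrays, all but OXA replicate 1, with a difference of 0.46 to 0.70. Fitting only the groups compared gave an adjusted p of 1 in HT29 and 0.0635 in HTOXAR3. The members called lower in HTOXAR3 were HIST1H2AK, an H2A gene, at -0.40 (SE 0.08, adjusted p = 0.0329), and the H4 genes HIST1H4L at -0.38 (SE 0.07, adjusted p = 0.0234) and HIST1H4C at -0.35 (SE 0.07, adjusted p = 0.0287).

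By family, medians on adding Curcumin were taken over the genes well above background. In HT29 and HTOXAR3 these medians were -0.15 and -0.37 for H1, -0.23 and -0.38 for H2A and -0.14 and -0.06 for H2B. They were -0.19 and -0.34 for H3 and -0.30 and -0.35 for H4. The order of the members was broadly shared, with a Spearman correlation of 0.76 and a Pearson correlation of 0.86 over 63 genes. HIST3H2A stood at 0.28 in HT29 and 0.60 in HTOXAR3, without being called in either, and in HTOXAR3 its combination levels were 5.52, 5.64 and 6.79, so 1 array lay far above the others.

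In 3 of the 11 genes with several probes, a probe far into the transcript gave another response than the coding probe. Of 45 H2A and H2B probes, 6 probes of 5 genes began 500 or more bases into the annotated transcript, past the length of an ordinary H2A or H2B message, in a transcript model that the array annotation extends that far. They were singled out after their values were seen, position as the cause was not tested, and which form of the message these probes read could not be checked here. The comparison is between these distant probes and coding probes of the same genes, so the first 30 bases of 3 distant probes are shown above the coding probes, with the start codon in capitals where it is present.
HIST1H2AC, base 1145: gcattatgcaaatgcattatattttatgta
HIST1H2BK, base 660: ggtccattccttctctctaataatcattta
HIST2H2BF, base 1731: atcctgacaaaagccagtggatgtttcttt
HIST1H2AC, base 88: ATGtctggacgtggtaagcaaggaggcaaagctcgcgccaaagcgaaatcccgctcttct
HIST1H2BK, base 141: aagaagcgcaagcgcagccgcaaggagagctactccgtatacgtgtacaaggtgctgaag
HIST2H2BF, base 220: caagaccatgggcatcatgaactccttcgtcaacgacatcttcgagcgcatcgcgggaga

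The distant probe of HIST1H2AC, an H2A gene, read 7.25, 7.44 and 7.55 in untreated HT29, 5.38, 5.15 and 5.34 with OXA and 8.29, 8.08 and 8.02 with OXA plus Curcumin. In HTOXAR3 it read 7.2, 7.16 and 7.37 untreated, 6.25, 5.88 and 6.17 with OXA and 8, 7.98 and 8.56 with OXA plus Curcumin. OXA arrays were thus the lowest and combination arrays the highest in each line, with no overlap. With each probe tested on its own in limma, OXA lowered it by a log2 difference of -2.13 (SE 0.15, adjusted p = 1.93e-06) in HT29 and -1.14 (SE 0.15, adjusted p = 0.00131) in HTOXAR3. Curcumin then raised it by 2.84 (SE 0.15, adjusted p = 1.29e-06) and 2.08 (SE 0.15, adjusted p = 1.13e-05). The coding probe of the same gene differed by -0.19 and -0.32 on adding Curcumin, and by -1.06 and -0.66 with OXA alone.

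HIST1H2BK, an H2B gene, showed the same order of groups. Its distant probe read 10.95, 10.96 and 10.72 in untreated HT29, 9.35, 9.31 and 9.57 with OXA and 11.38, 11.28 and 11.12 with OXA plus Curcumin. In HTOXAR3 it read 11.68, 11.66 and 11.6 untreated, 10.43, 10.31 and 10.29 with OXA and 12.09, 11.94 and 12.27 with OXA plus Curcumin. The OXA difference was -1.46 (SE 0.10, adjusted p = 1.5e-06) in HT29 and -1.30 (SE 0.10, adjusted p = 1.31e-05) in HTOXAR3. Curcumin raised it by 1.85 (SE 0.10, adjusted p = 1.53e-06) and 1.76 (SE 0.10, adjusted p = 1.57e-06), while the coding probe differed by -0.01 and 0.15. Between the untreated lines this probe differed by 0.77, higher in HTOXAR3 (adjusted p = 0.000845).

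The third distant probe, of the H2B gene HIST2H2BF, was well above background on 17 arrays. It read 4.86, 5.84 and 5.78 with OXA in HT29 and 6.83, 6.29 and 6.25 with Curcumin added, a difference of 0.96 (SE 0.21, adjusted p = 0.104). In HTOXAR3 the levels were 5.37, 5.2 and 5.25 with OXA and 6.64, 6.46 and 6.67 with Curcumin added, a difference of 1.32 (SE 0.21, adjusted p = 0.00761). Its coding probe differed by -0.14 and 0.09, and OXA alone moved the distant probe by -0.10 and -0.32, neither of them called. The other 3 distant probes, of HIST2H2BE, HIST2H2BF and HIST2H2BA, were well above background on 6, 3 and 0 arrays, and none was called with OXA or on adding Curcumin.

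Across all single probes, 2.79% were called higher with Curcumin in HT29 and 4.1% in HTOXAR3, and 6.93% and 4.51% were called lower with OXA. For the distant minus the coding probe, the change on adding Curcumin was 3.04 and 2.40 for HIST1H2AC in HT29 and HTOXAR3, 1.86 and 1.60 for HIST1H2BK, and 1.10 and 1.23 for HIST2H2BF. These differences describe probes chosen for their values. An exact permutation test of 3 against 3 arrays gave p = 0.1 for each. That is the smallest p it can give, so it cannot decide whether they differ from 0. In the gene-level values above, each of these genes was represented by its brighter coding probe. The coding probe of HIST1H2BK was 92.7% identical to that of HIST1H2BD, and that of HIST2H2BF 91.8% identical to that of HIST1H2BM.

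**Figure D4:**
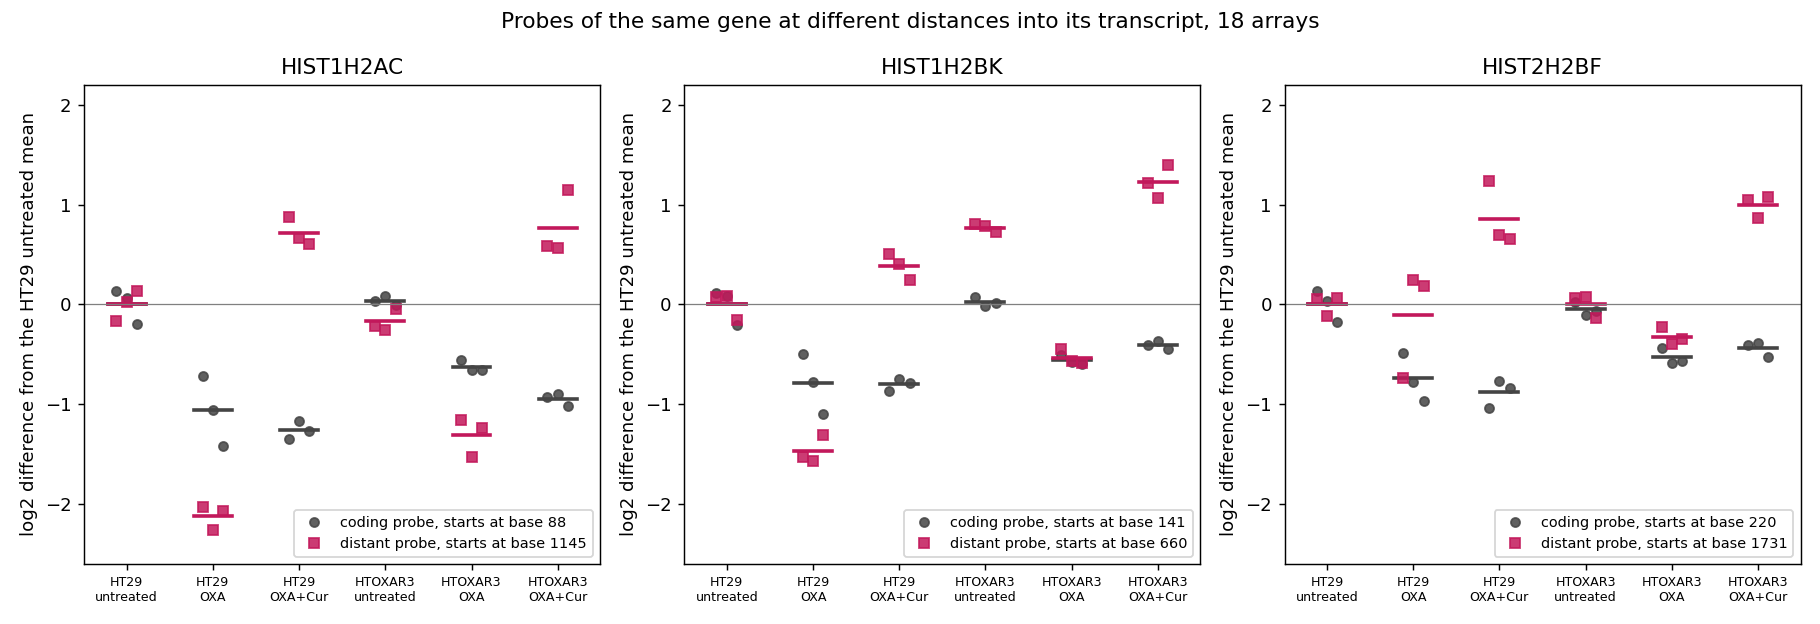
Log2 level of the coding probe (circles) and the distant probe (squares) of HIST1H2AC, HIST1H2BK and HIST2H2BF on each array, as the difference from that probe's mean in untreated HT29 (y axis), by group (x axis), with a bar for the mean of 3 arrays. On adding Curcumin the distant probe of HIST1H2AC rises by 2.84 in HT29 and 2.08 in HTOXAR3, while the coding probe stays below its untreated level.

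Against untreated cells, OXA plus Curcumin left most clustered histone genes lower. In HT29 55 of 69 were called lower and none higher, 79.7% against 9.02% of all names called lower and 9.56% higher, and in HTOXAR3 47 were called lower and 1 higher, 68.1% against 8.64% and 8.82%. The medians of the members were -0.93 and -0.74, and those of all names -0.03 and -0.01. These comparisons use the same untreated arrays as those of OXA alone. Fitting only the groups compared gave 36 calls in HT29. Of the members called lower with the combination, 44 were called in both lines. The counts rest on the brightest probe of each gene, and the distant probe of HIST1H2AC, counted as lower in both lines, was called higher with the combination, by 0.71 (adjusted p = 0.0285) in HT29 and 0.94 (adjusted p = 0.00346) in HTOXAR3. The distant probes of HIST1H2BK and HIST2H2BF also stood above their untreated levels, by 0.39 and 0.86 in HT29, without being called, and by 0.45 (adjusted p = 0.0439) and 1.00 (adjusted p = 0.0309) in HTOXAR3.

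The members that fell most with the combination in HT29 were HIST1H2AL at -2.09 (SE 0.20, adjusted p = 1.9e-05), HIST4H4 at -1.97 (SE 0.18, adjusted p = 1.42e-05) and HIST1H1D at -1.80 (SE 0.10, adjusted p = 1.33e-07). In HTOXAR3 they were HIST1H1D at -1.70 (SE 0.10, adjusted p = 2.92e-07), HIST1H2AL at -1.69 (SE 0.20, adjusted p = 0.000156) and HIST1H2BF at -1.44 (SE 0.18, adjusted p = 0.000307). HIST1H1D read 11.94 on each of the 3 combination arrays of HT29 and 12.23, 12.31 and 12.13 on those of HTOXAR3, all below the OXA arrays of the same line. The member called higher in HTOXAR3 was HIST2H2AA4 at 0.79 (SE 0.12, adjusted p = 0.00133).

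In HTOXAR3, all 13 H4 genes well above background were called lower with the combination, against 10 of 17 H2B genes. In HT29 the counts were 10 of 13 for H4 and 17 of 17 for H2B. Among all names, 8.64% were called lower with the combination in HTOXAR3 and 9.02% in HT29. The difference between these families was not tested. HIST1H4C, which OXA alone left near its untreated level, read 17.73, 17.78 and 17.58 with the combination in HTOXAR3 against 18.09, 18.14 and 18.06 untreated. For the line difference in the combination response, none of the 69 was called, against 0.32% of all names called higher and 0.536% lower. Its median was 0.26 over the members and 0.02 over all names, and Benjamini-Hochberg adjustment called 2 members. At an unadjusted p below 0.05, 22 members were higher and 0 lower, counts given without the share of all names at that p.

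Across all 4 comparisons with untreated cells, 10 members were never called lower. They were the 6 dim genes given above and HIST1H3A, HIST1H3C, HIST2H3A and HIST3H3, all H3 genes. HIST3H3 and HIST1H1E each had no value on 1 of the 3 HTOXAR3 combination arrays, and HIST1H3B none on 1 of the 3 HT29 OXA arrays, because the spot was flagged, so those group means rest on 2 arrays.

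Among the genes that control histone messages, NPAT, the coactivator of histone transcription, differed by 0.21 and 0.17 with OXA in HT29 and HTOXAR3 (adjusted p = 1 in each) and was not called in any comparison. SLBP, the stem-loop binding protein, differed by 0.21 (adjusted p = 0.359) and 0.06 (adjusted p = 1) with OXA and was not called in any comparison either. Of 36 genes of histone gene control and pre-mRNA processing, 5 rose and 2 fell with OXA in HT29, and 4 rose and 2 fell in HTOXAR3, with a median of 0.09 in each line. Of all names 8.33% were called higher and 7.62% lower in HT29, and 5.31% and 4.94% in HTOXAR3, so the falls in the list are near that background. NCBP2, part of the cap-binding complex, fell by 0.89 and 0.58, and CSTF2T, a cleavage factor paralogue, fell by 0.56 and 0.57. HINFP, an activator of H4 genes, rose by 0.58 and 0.47.

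Histones made outside DNA synthesis are encoded by scattered genes, most of whose messages carry ordinary poly(A) tails, although H2AFX also gives a stem-loop message. Of 15 on the array, 1 was called higher and 5 lower with OXA in HT29, and 0 and 5 in HTOXAR3, with medians of -0.18 and -0.17. Among all names, 8.33% were called higher and 7.62% lower in HT29, and 5.31% and 4.94% in HTOXAR3. The linker histone genes H1FX and H1F0 fell by 1.23 and 1.11 in HT29 and by 1.19 and 1.00 in HTOXAR3. H2AFY, which encodes macroH2A1, rose by 0.43 in HT29. Adding Curcumin called none in HT29 and 3 lower in HTOXAR3, where 2.39% and 4.41% of all names were called lower.

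The 6 clustered genes known also to give polyadenylated messages, HIST1H1C, HIST1H2AC, HIST1H2BC, HIST1H2BD, HIST1H2BK and HIST2H2BE, were all called lower with OXA in HT29 and 5 of 6 in HTOXAR3, read by their brightest probes, beside 75.4% and 47.8% of all clustered histone genes and 7.62% and 4.94% of all names. By these probes their medians were -0.79 and -0.56 with OXA, and -0.03 and 0.12 when Curcumin was added, with none called on adding Curcumin. Their distant probes differed from this. Those of HIST1H2AC and HIST1H2BK were called higher on adding Curcumin, by 2.84 and 2.08 and by 1.85 and 1.76. That of HIST2H2BE, well above background on 6 arrays, was not called.

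Genes of DNA replication had medians above 0 with OXA and below 0 on adding Curcumin. Of 38 on the array, 9 rose and 3 fell with OXA in HT29, and 4 rose and 3 fell in HTOXAR3, with medians of 0.11 and 0.12. Of all names 8.33% were called higher and 7.62% lower in HT29, and 5.31% and 4.94% in HTOXAR3. MCM6, a subunit of the replicative helicase, fell by 0.79 and 0.86. POLD1, the catalytic subunit of polymerase delta, rose by 0.75 and 0.68. Adding Curcumin lowered 22 of the 38 in HT29 and 18 in HTOXAR3 and raised none, with medians of -0.39 and -0.30, where 2.39% and 4.41% of all names were called lower, among them MCM7 at -0.59 and -0.65 and POLA1 at -0.61 and -0.62.

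Of 25 histone chaperones, 4 rose and 2 fell with OXA in HT29, and 2 rose and 1 fell in HTOXAR3. Of all names, 8.33% and 5.31% were called higher and 7.62% and 4.94% lower in HT29 and HTOXAR3. CHAF1A, the large subunit of the chromatin assembly factor that loads H3 and H4 behind the replication fork, fell by 0.80 (SE 0.08, adjusted p = 2.48e-05) in HT29 and was not called in HTOXAR3. The difference between the lines was itself called, at 0.76 (SE 0.11, adjusted p = 0.0116). NASP, a chaperone of soluble H3 and H4, fell by 0.28 in each line. Adding Curcumin lowered 6 chaperones in HT29 and 8 in HTOXAR3, against 2.39% and 4.41% of all names, including NAP1L1, which binds H2A and H2B, at -0.55 and -0.54. Of 7 cyclin-dependent kinase inhibitors, 1 rose and none fell on adding Curcumin in HT29, and 1 rose and 1 fell in HTOXAR3, against 3.14% and 4.43% of all names called higher and 2.39% and 4.41% lower. CDKN1A was the one that rose, by 2.12 and 1.60, and CDKN2A the one that fell, at -0.37. With OXA alone 1 rose and 1 fell in each line, beside the same shares of all names as for the chaperones. These were CDKN1C at 0.57 and CDKN2D at -0.43 in HT29, and CDKN1A at 0.88 and CDKN2D at -0.40 in HTOXAR3.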

How the data were processed

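Per the labels, total RNA was amplified, labelled with Cy3 and hybridised to 18 one-colour arrays. The deposited scanner files hold intensity values per spot, and per the file headers these are mean spot and median local background intensities that the scanner software extracted without normalization. Following the study's methods, background was corrected by normexp, arrays were quantile normalized and limma was fitted, with an offset of 0 that was set here because the methods give none. Control spots were left out, outlier-flagged spots were set to missing, spots of a probe were averaged and the brightest probe stood for a gene name. The fit (limma 3.58.1, R 4.3.3) had 1 term for each of 6 groups on 18 arrays, and 9 comparisons were made. Adjusted p-values are Benjamini-Yekutieli values over all 36204 names, and a call needed one below 0.05 with a fold above 1.2. A deposited table of processed values was not used, since its rows carry no probe or gene name. The number of arrays limits the precision.

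Members and gene lists were chosen with earlier results of these data known. Named genes are, for each comparison, the 3 largest rises and falls among called members well above background, NPAT and SLBP, and 2 rises and falls of each other list. Other members named were chosen after their values were seen. Some genes of the other lists are not reported here by name. Replicate numbers paired the arrays for OXA in HT29 (same-number correlations of deviations of 0.334, 0.324 and 0.413) and for Curcumin in HT29 (0.128, 0.126 and 0.264), and these numbers partly coincide with the 3 slides. Probe and gene positions are those of the array annotation on GRCh37. Scripts were tested on simulated data. Alternatives tried covered background offset, scaling, probe choice, filtering, adjustment, fold minimum, samples fitted, replicate and slide blocks, and leaving out each array.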

Additional observations from a re-analysis of the deposited data

How the results depend on the processing

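No called value of a gene reversed its direction. With each probe on its own, the distant probes of HIST1H2AC in both lines and of HIST1H2BK and HIST2H2BF in HT29 stood opposite to their genes' combination calls. Among values not called at first, the members' median between the untreated lines was 0.08 on slide 3 alone. With the mean of all probes HIST1H2AC was called higher on adding Curcumin, at 0.81 and 0.49, and HIST1H2BK in HT29 at 0.92. In HTOXAR3 that setting also newly called HIST1H2BK at 0.95, HIST2H2BF at 0.42 and HIST1H4D at -0.53, each in the direction of the first fit. A 2-fold minimum left 16 and 4 calls for OXA in HT29 and HTOXAR3, 31 and 15 for the combination and 0 and 0 for Curcumin. Fitting only the groups compared gave 4 and 4 for OXA, 36 for the combination in HT29 and 0 and 0 for Curcumin. Benjamini-Hochberg adjustment gave 52 for OXA in HTOXAR3, 5 and 25 for Curcumin, 2 for the untreated lines and 2 for the line difference in the combination response. The dim-probe filter gave 2 and 11 for Curcumin, offset 50 gave 2 and 10 and 1 for that line difference, the slide as a block gave 12 for Curcumin in HTOXAR3, and the mean of all probes gave 3 and 8 and 1 for the untreated lines. With each probe tested on its own, an alternative chosen after seeing the data, the same 3 values were 3, 8 and 1. The cause of these moves was not tested.

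Leaving out 1 array gave 46 to 52 and 14 to 21 calls for OXA, 53 to 55 and 38 to 46 for the combination and 0 to 1 and 1 to 4 for Curcumin. On the arrays of slide 3 only, the members' median was -0.03 for Curcumin in HT29 and -0.80 for the combination in HT29. With the replicate number as a block, the pairing gave 0 calls for Curcumin in HT29, where the numbers paired the arrays. In HTOXAR3 the same-number correlations for Curcumin were 0.257, 0.14 and 0.078, with 5 of 6 arrays closest to their own number, which is a hint of pairing, but not every correlation passed 0.1, and the block gave 9 calls. The block moved no other count by over 1.5 times. Members dim on most arrays limit what could be seen for 6 genes.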
